A study of Caenorhabditis elegans with 16 samples.

Results

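The 351 bins described here hold the most small RNA of any unmarked stretch of the Caenorhabditis elegans genome in 16 libraries. They were chosen from a deposited table of 100257 bins of 1000 bases by 2 conditions: the 16 libraries had to average 200 RPKM or more, and the table had to mark the bin neither GRH nor GRTS. RPKM is a read count scaled to the length of the bin and the size of the library, so these values are levels per length. GRH and GRTS are yes or no columns of the table, names used for regions of germline nuclear RNAi-dependent heterochromatin and transcriptional silencing; another 58 bins reached the same mean but carried a mark (42 GRH and 20 GRTS, some both) and were left out. The 351 bins are 0.35% of the table and formed 270 regions of adjoining bins, of which 216 were single bins and 54 were longer, the longest running over 11 bins. Since the mean level chose the bins, their levels are given as a description without a test.

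Most endogenous small RNAs of this nematode are 22G RNAs, short antisense RNAs beginning with a 5′ triphosphate guanosine that RNA-dependent RNA polymerases make on messenger RNAs, pseudogene transcripts and long non-coding RNAs. They are bound by Argonaute proteins: CSR-1 is associated with expressed germline genes, the WAGO proteins with silenced ones, and HRDE-1 carries 22G RNAs into germline nuclei, where it directs histone H3 lysine 9 methylation and transcriptional silencing over generations. A smaller class, the 26G RNAs, triggers 22G production on a set of duplicated genes and pseudogenes, and microRNAs and piRNAs come from loci of their own.

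The study asked what happens to nuclear RNAi when hrde-1 is lost and then restored, and whether the putative histone methyltransferase SET-32 or the H3K9 methyltransferases MET-2 and SET-25 are needed for it. Small RNA from whole young adult hermaphrodites was cloned with a protocol that does not require a 5′ monophosphate, so that triphosphate 22G RNAs are included. Each of 4 genetic backgrounds (wild type, 2 alleles of set-32, and a met-2 set-25 double mutant) was sampled in 4 states of hrde-1 with 1 library per genotype. The never mutant state was N2, set-32(ok1457), set-32(red11) and met-2(n4256) set-25(n5021) themselves; the hrde-1 mutant state added hrde-1(tm1200) to each; the repaired states carried hrde-1(+R), the allele restored from the mutant, at generation F5 (F8 for set-32(ok1457)), called repaired early here, and at F20.

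Taking the commonest value above 0 in a library as that of 1 read, the libraries held 143 to 500 (median 329) units of 1000 reads in bins, and 200 RPKM stood for 32 to 138 reads (median 82). Values below that of 1 read also occur, so these read numbers are approximate. The columns did not sum to the same total. In 5 libraries, both set-32 backgrounds as never mutant and as hrde-1 mutant and met-2 set-25 repaired early, the bins of the whole table summed to between 899804 and 966603 RPKM, and in the other 11 to between 676746 and 804774 RPKM. These 5 libraries of high table total stood apart in several bins below. The member bins held 12.6 to 18.3% of a library's table total (median 15.1%).

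The bins lay mainly over genes, but with far more pseudogenes and non-coding RNAs than the table in general. By the gene with the most exon bases in the bin, 205 of the 351 (58.4%) were led by a protein-coding gene, against 83.2% of the 25407 bins whose mean reached 5 RPKM, called the tested bins from here on. Pseudogenes led 60 (17.1% against 4.04%), long intergenic non-coding RNAs (lincRNAs) 14 (3.99% against 0.394%), other non-coding RNAs 19 (5.41% against 1.68%) and ribosomal RNA genes 10 (2.85% against 0.0433%). No gene could be named in 35 bins. Exons of the leading gene were present in 308 bins, with a median of 516 exon bases among the 1000.

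The members lay on all chromosomes, with 55, 67, 53, 61 and 62 on I, II, III, IV and V. Chromosome X held 53 (15.1%), which is more than its 7.64% of tested bins and less than its 17.7% of all bins of the table. Bins within 1 kb of a GRH bin numbered 18 (5.13% of members, against 0.551% of unmarked tested bins), so a small group of the members bordered the marked regions they were defined to exclude. The table's column "misanotated" marked 16 members (4.56%, against 0.594% of tested bins). Names come from the WBcel235 annotation, which matched the table's positions without a shift in 96 of 100 windows; names are less certain at the end of chromosome IV and from 17 Mb of chromosome V, and are not given for 5 members beyond 19 Mb of that chromosome.

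The highest level was over linc-22, a lincRNA on chromosome X. The bin X:9072001-9073000, which is exonic over all 1000 bases, averaged 1476 RPKM. Its lowest library was the met-2 set-25 hrde-1 mutant at 730 RPKM and its highest the set-32(ok1457) hrde-1 mutant at 2491 RPKM, with never mutant libraries at 1538, 1943, 1496 and 1009 RPKM. The bins on either side were members too, at lower averages of 701 and 255 RPKM.

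The next highest bins were led by little studied protein-coding genes, given here with their means. Y71A12B.10 (I:13957001-13958000) averaged 1157 RPKM, F02C12.3 (X:13397001-13398000) 1088 RPKM and W04A8.9 (I:13853001-13854000) 1058 RPKM. T26E3.7 averaged 887 RPKM, W09C5.12 878 RPKM and Y47H10A.5 824 RPKM, all of them in the right part of chromosome I. Pseudogenes among the 15 highest were Y52B11A.18 (869 RPKM), K09C4.3 (792 RPKM) and K08B4.5 (785 RPKM). One gene with a textbook function stood among them, his-24, a linker histone H1 gene, whose bin X:14490001-14491000 averaged 798 RPKM and ranged from 399 to 1335 RPKM.

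The remaining 4 of the 15 highest bins hold the srpr genes on chromosome III, which encode the RNA of the signal recognition particle, the ribonucleoprotein that brings ribosomes to the endoplasmic reticulum. The bins of srpr-2.1 (III:5211001-5212000), srpr-2.2 with klp-6 (III:5031001-5032000) and srpr-1.2 (III:4369001-4370000) averaged 858, 811 and 783 RPKM. The bin of srpr-1.1 (III:4379001-4380000), which it shares with the protein-coding gene B0284.3, averaged 833 RPKM. These genes are similar copies, so reads could have been divided between them in the counting, and their levels may not be independent of each other. How reads were assigned between them was not tested.

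**Figure D1:**
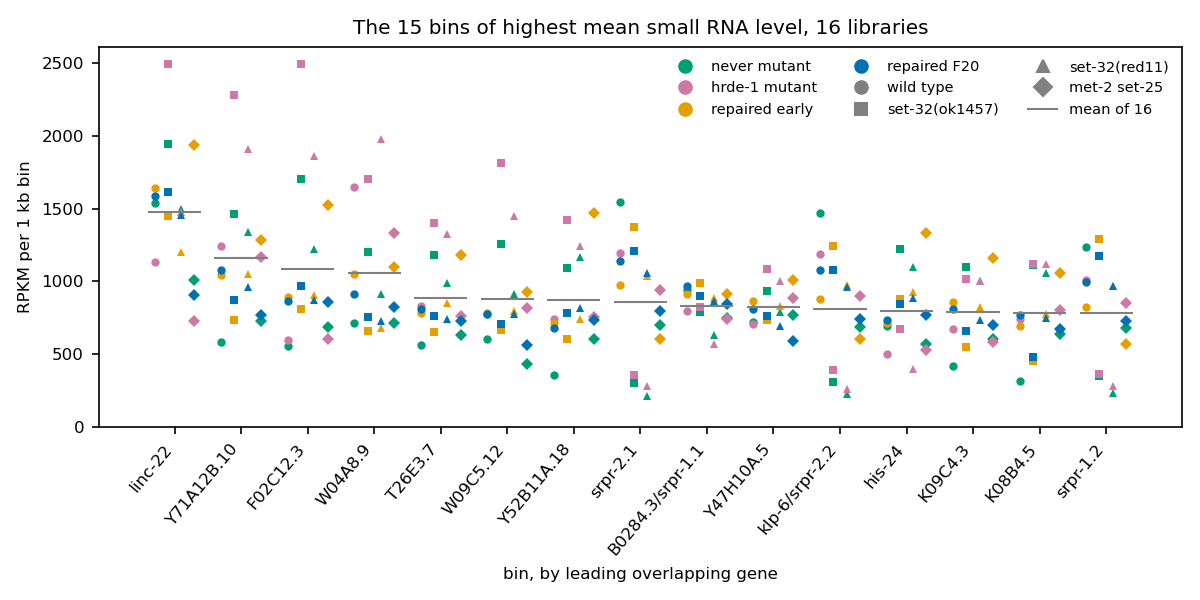
RPKM (y axis, linear) of the 15 member bins with the highest mean (x axis, named by leading gene) in each of the 16 libraries, coloured by hrde-1 state and shaped by background; the grey line is the mean of 16. linc-22 has the highest mean at 1476 RPKM, and 3 of the 4 srpr bins have low values in both set-32 backgrounds in the never mutant and hrde-1 mutant states.

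Bins over genes known for abundant 26G or 22G RNAs were frequent among the members. The members were chosen by their level and the list was written with earlier results of these data known. A high share was therefore built into the choice, and it is given only as a description. Of 66 tested bins over a list of such genes, 16 (24.2%) were members, over 14 genes; of all tested bins 1.38% were members. The highest was C44B11.6 (III:3153001-3154000) at 606 RPKM on average, followed by eri-6 at 570 RPKM, Y37E11B.2 at 459 RPKM in its higher bin and fbxb-97, an F-box gene, at 394 RPKM. E01G4.7 had 2 member bins, at 253 and 365 RPKM, while the nearby E01G4.5 had 1 at 272 RPKM. Of the 14 genes eri-6, a helicase of the endogenous RNAi pathway, had the only bin that passed the test between hrde-1 mutant and never mutant libraries described below.

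The other lists gave shares near or below that of all tested bins, from which nothing is read. A short list of genes of the RNAi machinery and of germline development gave 1 member of 149 tested bins. It lay over prg-1, the piRNA-binding Argonaute, and averaged 208 RPKM, with a range of 150 to 354 RPKM. The list is not complete: sid-1, an RNAi gene outside it, led a member bin at 252 RPKM. Translation genes gave 2 of 146, both over eef-1A.1, the translation elongation factor. No bin over the sperm list (88 tested) or the muscle list (29 tested) was a member.

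An annotated microRNA was overlapped by 9 bins, although the protocol is not selective for microRNAs and several of these bins also hold other genes. The cluster of mir-35, mir-36, mir-37 and mir-38, microRNAs of the embryo and germline, gave 319 RPKM on average at II:11537001-11538000, with a range of 206 to 649 RPKM. The adjoining bins of mir-229 with mir-64 and of mir-65 with mir-66 averaged 277 and 214 RPKM, the mir-54 to mir-56 cluster on chromosome X 253 RPKM and mir-71, which is known from ageing, 221 RPKM. In the mir-71 bin the wild-type and met-2 set-25 libraries of the never mutant and hrde-1 mutant states lay between 84.1 and 99.3 RPKM, and the other 12 libraries between 194 and 408 RPKM. These 4 libraries are also the ones whose names in the table carry other prefixes than the shared prefix of the other 12, so state, background and name prefix cannot be told apart here. The other 4 bins were those of mir-257 (431 RPKM), mir-260 with the pseudogene F39E9.7 (364 RPKM), mir-5549 inside eef-1A.1 (240 RPKM) and mir-258.2 with AC8.3 (201 RPKM). None of the 9 passed the test between hrde-1 mutant and never mutant libraries.

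The longest runs of member bins stood near 17.1 Mb of chromosome V, over and beside the array of 5S ribosomal RNA genes (rrn-4) and SL1 spliced leader genes (sls-1), where names are less certain. Between V:17115001 and V:17132000, 12 bins were members, all of them marked "misanotated", with means of 229 to 390 RPKM and an average over the 12 bins of 176 to 404 RPKM in single libraries. The 11 adjoining bins of V:17134001-17145000 averaged 208 to 595 RPKM each, and 9 of them had no named gene. Their average over the bins ranged more widely, from 141 to 774 RPKM. Another 4 members lay at V:17424001-17429000, with means of 216 to 324 RPKM. Repeated genes can share reads, so a bin of the array need not be the source of its reads.

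Outside these runs, the other 14 of the 26 gene-free members were spread over all 6 chromosomes. The members with piRNA genes as the only genes numbered 4, all between IV:16834001 and IV:16840000 in the piRNA-rich end of chromosome IV, with means of 246 to 265 RPKM. Collagen genes, transfer RNA genes and histone genes named his- gave 1 member bin each. Histone genes of other names were not counted in that class, and hil-3 (338 RPKM) and hcp-3 (247 RPKM) also led member bins. At the threshold itself the 3 bins just inside averaged 200.8 (mir-258.2 with AC8.3), 200.8 (btf-1) and 200.9 RPKM (klp-15), and the 3 unmarked bins just outside 199.1 (herd-1), 199.2 (C08D8.1) and 199.5 RPKM (T27E7.10).

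Across the 16 libraries the members varied less than most tested bins, which are lower and rest on fewer reads; the part of counting error in this was not tested. The SD of log2(RPKM + 1) over the libraries had a median of 0.49 in the members (quartiles 0.40 and 0.61), 0.59 in the 2542 unmarked bins between 50 and 200 RPKM and 0.85 in all tested bins. In marked bins of the same level it was 0.43. The highest library exceeded the lowest by a median of 3.44-fold (quartiles 2.72 and 4.80), with 10 bins under 2-fold and 27 over 10-fold. At least 100 RPKM was reached in all 16 libraries by 269 bins (76.6%) and at least 200 RPKM by 91 (25.9%). There were 18 bins, not all of them outside the 269, that reached 200 RPKM in fewer than 8 libraries, so that their membership rests on a minority of high libraries.

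The order of the bins was only partly kept from library to library. Over the 351 bins the Spearman correlation between 2 libraries had a median of 0.57 over 120 pairs, as a description of libraries that share backgrounds and states. It was highest, at 0.92, between the repaired early and F20 libraries of wild type and equally of set-32(ok1457), and lowest, at 0.22, between N2 and never mutant set-32(red11). In pairs across the 5 libraries of high table total and the other 11 the median was 0.48, and it was 0.63 within either set. Of the 351 highest unmarked bins of a single library, 222 to 310 were members.

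The steadiest bins were of several kinds. The bin of srpr-1.1 and B0284.3 lay between 567 and 988 RPKM in the 16 libraries (SD 0.22 on the log2 scale), in contrast to the bins of the other srpr genes, with SDs of 0.78 to 0.90. A gene-free bin, IV:914001-915000, ranged from 151 to 283 RPKM (SD 0.22). Y47H10A.5 ranged from 588 to 1084 RPKM (SD 0.23), the lincRNA linc-7 from 299 to 551 RPKM (SD 0.23) and Y59H11AR.4 from 431 to 705 RPKM (SD 0.25).

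The most variable bins were those of the vitellogenin genes vit-2 and vit-6, which encode yolk proteins made in the adult intestine. All 8 member bins over them had an SD of 2.42 to 2.88, above every other member. The next most variable bin, over the pyruvate kinase gene pyk-1 (SD 1.79), had its low values elsewhere: it held 45.4 RPKM in set-32(ok1457) repaired early and was listed at 1.08 RPKM at F20, under the 9.75 RPKM that 3 reads give there, and held 147 to 347 RPKM in the other 14 libraries. It was one of 12 bins with under 20 RPKM in some library; a vit-2 bin was the one member listed at 0 in a library, the set-32(ok1457) hrde-1 mutant, where 3 reads would have given 12.8 RPKM.

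**Figure D2:**
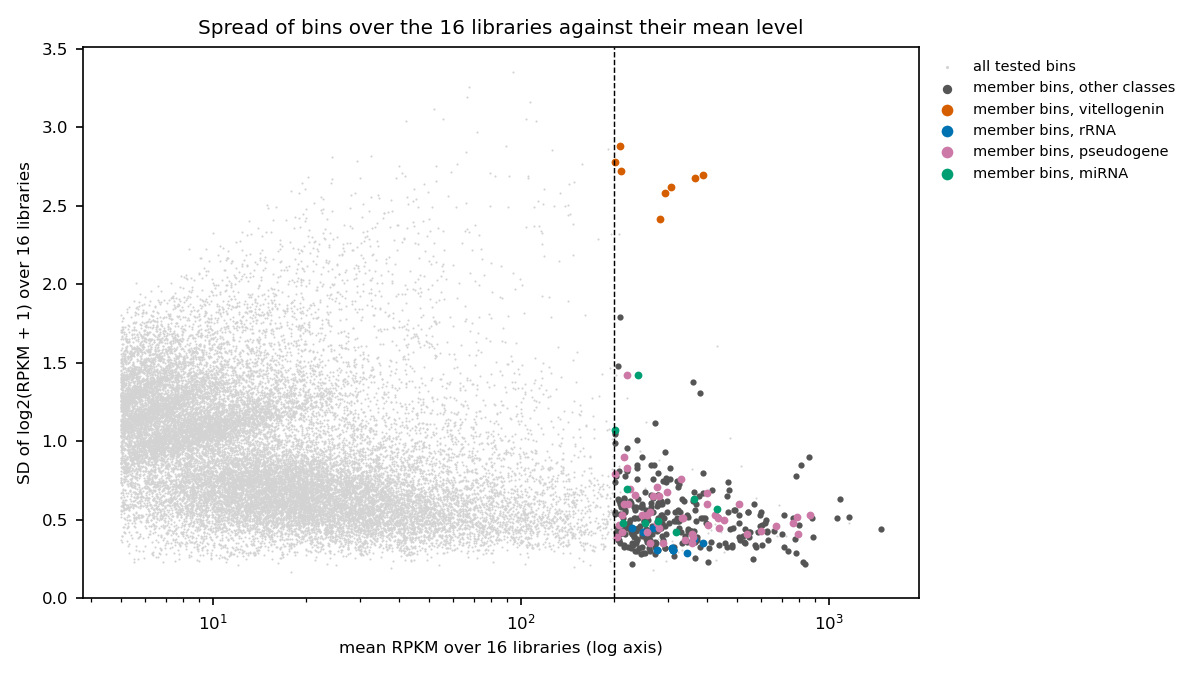
SD of log2(RPKM + 1) over the 16 libraries (y axis) against the mean RPKM (x axis, log scale) for all tested bins in grey and member bins in colour by class; the dashed line is the 200 RPKM threshold, and grey points to its right are marked bins. The 8 vitellogenin bins lie at an SD of 2.42 to 2.88, apart from the other members, whose overall median is 0.49.

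The vitellogenin bins separated the 5 libraries of high table total from the other 11. In the bin IV:8265001-8266000 of vit-6 the 5 libraries held 14.4 RPKM (never mutant set-32(ok1457)), 4.89 RPKM (never mutant set-32(red11)), 4.26 and 10.5 RPKM (their hrde-1 mutants) and 51.1 RPKM (met-2 set-25 repaired early). The other 11 held 301 to 916 RPKM, with a median of 559 RPKM, so the sets were far apart. Summed over the 8 bins, the 5 libraries held 50.7 to 224 RPKM and the other 11 held 1931 to 5615 RPKM.

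In all, 13 members were lower in every one of the 5 libraries than in any of the 11 (3.7%, against 1.27% of tested bins). Beside the 5 vit-6 and 3 vit-2 bins these were 2 bins of eef-1A.1 and the bins of srpr-1.2, srpr-2.1 and srpr-2.2. The higher eef-1A.1 bin (III:6970001-6971000) held 58.9 to 129 RPKM in the 5 libraries and 310 to 1080 RPKM in the 11. The srpr-2.1 bin held 212 to 605 RPKM in the 5 and 701 to 1546 RPKM in the 11, a ratio of medians of 3.51. In the srpr-1.1 bin the sets overlapped, at 567 to 910 RPKM against 744 to 988 RPKM.

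Sums over tissue marker genes moved with these libraries. The intestine list, of which 8 of 46 bins are members, summed to 138 to 616 RPKM in the 5 libraries and 4414 to 12429 RPKM in the 11. This list consists mainly of vitellogenin genes, so its sum is not separate from the vitellogenin bins above. Muscle markers gave 46.0 to 273 against 354 to 1533 RPKM and hypodermis markers 6.26 to 22.1 against 253 to 866 RPKM, whereas germline markers overlapped at 866 to 1571 against 875 to 1526 RPKM. Sperm markers overlapped too but reached lower in the 5 libraries, at 161 to 1139 against 480 to 1733 RPKM. The split groups libraries by a property of the table, not by a group of the study, and the part of tissue makeup, preparation or table total in it was not tested. In whole animals a smaller share of a tissue and less small RNA per cell cannot be told apart.

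In the other direction, 60 members were higher in all 5 libraries than in any of the 11 (17.1%, against 1.16% of tested bins). They include Y71A12B.10, F02C12.3, T26E3.7 and W09C5.12 of the 15 highest. This number depended on the scale. With each value divided by its library's table total, an alternative chosen after seeing the data, 6 members were higher (1.71%, against 0.169%) and 13 were lower (3.7%, against 1.71%). The 6 were bins of Y52B11A.18, Y54G11A.14, sdz-26, K08B4.5, M02F4.1 and F47B7.6.

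**Figure D3:**
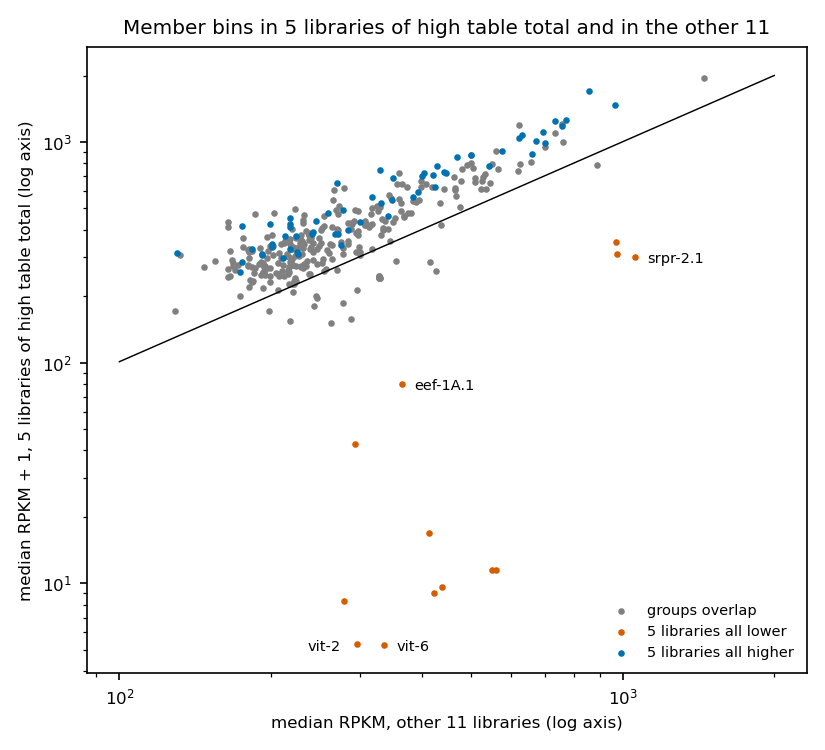
Median RPKM + 1 in the 5 libraries of high table total (y axis, log scale) against the median RPKM in the other 11 (x axis, log scale) for the 351 member bins; the line marks equal values. The 13 orange bins, with vit-2, vit-6, eef-1A.1 and srpr-2.1 named among them, are lower in all 5 libraries, and the 60 blue bins are higher in all 5.

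Between the 4 hrde-1 mutant and the 4 never mutant libraries, paired by background, 10 member bins changed. This was 2.85% of members, against 1.14% of all tested bins, by limma on log2(RPKM + 1) with Benjamini-Hochberg adjustment over the 25407 tested bins and a threshold of 0.05. Of these, 9 fell (2.56%, against 0.712%) and 1 rose (0.285%, against 0.425%). The median log2 change was 0.052 in the members and 0.051 in all tested bins, so the members as a whole did not stand apart in direction. Genotypes had 1 library each, so the error is the spread of the change between backgrounds. The choice of members is not free of this comparison: without the never mutant libraries the means of F41B5.1, linc-29 and a gene-free bin on chromosome I would be 185, 197 and 177 RPKM, and without the hrde-1 mutants that of the bin that rose 186 RPKM, all under 200 RPKM. The other 6 called bins reached 200 RPKM without either group, and nothing is read from the share of members called.

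The bin that rose, IV:12508001-12509000, contains no annotated gene. Its never mutant libraries held 158 RPKM in wild type, 174 RPKM in set-32(ok1457), 75.9 RPKM in set-32(red11) and 142 RPKM in met-2 set-25, and their hrde-1 mutants 531, 771, 643 and 516 RPKM. Every mutant library was higher than every never mutant one. The mean went from 137 ± 43.2 to 615 ± 118 RPKM (SD, n = 4), a log2 change of 2.20 ± 0.25 (SE, limma adjusted p = 0.0117).

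The strongest fall was in V:8484001-8485000, which overlaps the non-coding RNA T23B12.14 over only 63 exon bases, so that most of the bin lies outside an exon. It held 512, 825, 651 and 255 RPKM in the never mutant libraries, in the same order of backgrounds, and 88.6, 413, 60.2 and 32.8 RPKM in the mutants. The set-32(ok1457) mutant overlapped the never mutant range, the others did not, and the log2 change was -2.46 ± 0.36 (limma adjusted p = 0.0176).

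F41B5.1, a protein-coding gene at V:2256001-2257000, fell from 371, 496, 404 and 314 RPKM to 77.2, 198, 70.7 and 49.3 RPKM. No mutant library reached the never mutant range, and the log2 change was -2.18 ± 0.26 (limma adjusted p = 0.0118). The gene-free bin I:2059001-2060000 fell from 212, 492, 471 and 244 RPKM to 95.0, 181, 132 and 36.4 RPKM, again without overlap, by a log2 change of -1.78 ± 0.28 (limma adjusted p = 0.0212).

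The bin over eri-6 (I:4464001-4465000, 917 exon bases) held 535, 992, 971 and 431 RPKM in never mutant libraries and 310, 424, 298 and 218 RPKM in the mutants. Here too the groups did not overlap, by a narrow margin, with a log2 change of -1.17 ± 0.21 (limma adjusted p = 0.0377). The lincRNA linc-29 (IV:6357001-6358000) fell from 305, 304, 297 and 185 RPKM to 91.0, 149, 94.6 and 91.5 RPKM, without overlap and with a log2 change of -1.35 ± 0.23 (limma adjusted p = 0.0294). The pseudogenes Y39E4B.14 (III:13164001-13165000) and Y48G1BM.8 (I:249001-250000) had log2 changes of -1.16 ± 0.22 and -1.14 ± 0.20. In both the set-32 libraries were the highest in each state and the groups overlapped, although each background fell. A richer member bin led by Y39E4B.14 (III:13162001-13163000, 764 RPKM on average) was not called.

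The last bins called were those of Y76B12C.8 (IV:1980001-1981000) and the F-box gene fbxa-218 (III:12440001-12441000), with log2 changes of -1.19 ± 0.22 and -1.14 ± 0.22. The adjusted p over these and the pseudogenes lay between 0.0393 and 0.0491 (limma). All 4 backgrounds moved in the same direction in each of the 10 bins, which the paired test that chose them favours, so nothing is read from it. The called bins of eri-6, linc-29, Y39E4B.14 and Y48G1BM.8 lie 1 kb from a GRH bin, as 18 of the 351 members do, and the other 14 of those 18 were not called, with log2 changes from -1.29 to 0.44.

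Among the 15 highest bins the closest to the threshold was W04A8.9, with 712, 1202, 915 and 716 RPKM in never mutant and 1645, 1705, 1980 and 1332 RPKM in mutant libraries. The groups did not overlap, and the log2 difference was 0.93 ± 0.18 (limma adjusted p = 0.0552). For his-24 the never mutant libraries held 692, 1219, 1100 and 569 RPKM and the mutants 503, 673, 399 and 530 RPKM, a log2 difference of -0.72 ± 0.24 (limma adjusted p = 0.277). For linc-22 it was -0.14 ± 0.19. Changes beyond 2-fold were seen in 18 members (5.13%), against 14.7% of tested bins. An unadjusted p under 0.05 was reached by 65 members (18.5%), against 10.9% of tested bins. Most tested bins are lower and rest on fewer reads, and the part of depth in either contrast was not tested.

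The number of calls was not stable to the choice of libraries. It was 12 without the wild-type pair, 3 without the set-32(ok1457) pair, and 0 without either the set-32(red11) or the met-2 set-25 pair. It was 3 with a pseudocount of 0.25 and 15 with one of 5 (4 higher and 11 lower), 1 without the pairing, and 0 when bins under 5 RPKM were tested as well. The counts over all tested bins were 270, 137, 0 and 42 without the pairs in the order above. They were 115 and 417 with these pseudocounts, 81 without the pairing and 0 with the lower bins included.

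**Figure D4:**
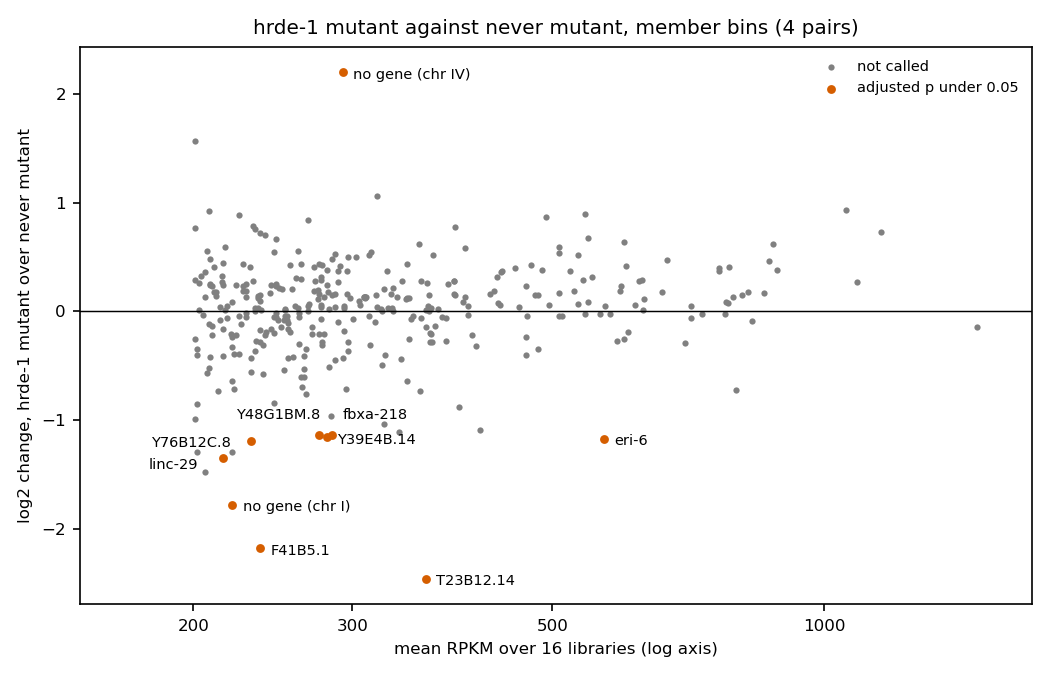
The log2 change from never mutant to hrde-1 mutant libraries over 4 pairs (y axis) against the mean RPKM over 16 libraries (x axis, log scale) for the 351 member bins. The 10 called bins are orange and named; 1 gene-free bin on chromosome IV rose by 2.20 and 9 fell by between 1.14 and 2.46.

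Restoring hrde-1 was compared with both the mutant and the never mutant state, and no member bin passed the test over the 4 backgrounds in any of these comparisons. By limma, 0 members were called between repaired early and hrde-1 mutant (0.0433% of tested bins), with 14 at an unadjusted p under 0.05 (3.99% of members, against 7.93% of tested bins), and 0 between repaired F20 and hrde-1 mutant (0.134%), with 35 (9.97% against 10.2%). Against never mutant libraries 0 were called for repaired early (0.0%), with 3 at an unadjusted p under 0.05 (0.855% against 3.57%), and 0 for repaired F20 (0.0%), with 8 (2.28% against 4.24%). These comparisons share libraries with each other and with the one above. A p that misses the threshold does not show that the states are alike. One alternative kept only the backgrounds whose compared libraries share a name prefix, which are the 2 set-32 alleles. In the 4 comparisons in this order it called 10, 21, 20 and 15 members. Of all 25407 tested bins it called 124, 476, 652 and 410. For these alleles the comparisons also cross the difference in table total.

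The gene-free bin on chromosome IV that rose in the mutants held 262, 256, 186 and 195 RPKM in repaired early libraries and 256, 247, 158 and 115 RPKM at F20. This bin was called for its high mutant values and averaged 186 RPKM without the mutant libraries. That choice favours lower values after repair, so the differences are given as a description. All 8 values were below the 4 mutant values, and the log2 difference from the mutants was -1.45 ± 0.36 early (limma adjusted p = 0.46) and -1.72 ± 0.29 at F20 (limma adjusted p = 0.0989). In the same order of backgrounds, the early values were 166, 147, 246 and 138% of the never mutant library. The F20 values were 162, 142, 208 and 81.3% of it. Over all 4 states and 16 libraries this bin alone among the members passed an F test for any difference between states (limma adjusted p = 0.00966; 0.285% of members, against 0.213% of tested bins). Leaving out the set-32(red11) or the met-2 set-25 hrde-1 mutant library took that count to 0, and leaving out that of set-32(ok1457) took it to 3. The F test includes the mutant libraries on which the call and the membership of this bin rest, so it is not separate from them.

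The values of the 9 bins that fell are given after repair as a description by background. The bins were chosen for mutant values that were low against the never mutant values. The never mutant library, the base of each percentage below, is thus part of the choice. F41B5.1, linc-29 and the gene-free chromosome I bin are members only through the never mutant libraries. As a percentage of the never mutant library of the same background, the median of the 9 bins in wild type was 46.0% in the mutant, 128% repaired early and 126% at F20. In met-2 set-25 it was 41.9, 123 and 106%. In set-32(ok1457) it was 48.5% in the mutant and 46.1 and 50.4% after repair, and in set-32(red11) 31.2, 59.6 and 79.6%. At or above the never mutant library were 8 and then 7 of the 9 bins in wild type, 7 and 7 in met-2 set-25, and 0 and 0 in either set-32 background.

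The T23B12.14 and gene-free chromosome I bins show the extremes. The T23B12.14 bin held 664 and 646 RPKM in wild type repaired early and F20, above its 512 RPKM in N2, but 87.4 and 192 RPKM in repaired set-32(ok1457), against 825 RPKM in the never mutant. The gene-free bin I:2059001-2060000 held 309 and 294 RPKM in repaired wild type and 93.4 and 92.7 RPKM in repaired set-32(ok1457), below the 181 RPKM of that background's mutant. By contrast linc-29 at F20 held 272, 257, 256 and 190 RPKM in the 4 backgrounds, with less than 100 RPKM between the highest and the lowest.

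The never mutant and mutant libraries of both set-32 alleles belong to the 5 of high table total and their repaired libraries do not, so for these backgrounds repair and table total cannot be told apart. In wild type and met-2 set-25 the repaired libraries differ in name prefix from the never mutant and mutant ones, while in both set-32 backgrounds all states share 1 prefix, so background and prefix cannot be told apart in this contrast either. Divided by table total, an alternative chosen after seeing the data, the medians in mutant, repaired early and F20 were 50.4, 65.1 and 70.7% of never mutant in set-32(ok1457) and 31.6, 74.1 and 106% in set-32(red11). The early median of set-32(ok1457), below the mutant one as deposited with 4 of 9 bins above it, was thus above it on this scale, with 6 of 9. At or above never mutant were then 0 and 1 of the 9 bins in set-32(ok1457) and 1 and 6 in set-32(red11), against 7 and 7 in wild type and 5 and 7 in met-2 set-25.

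**Figure D5:**
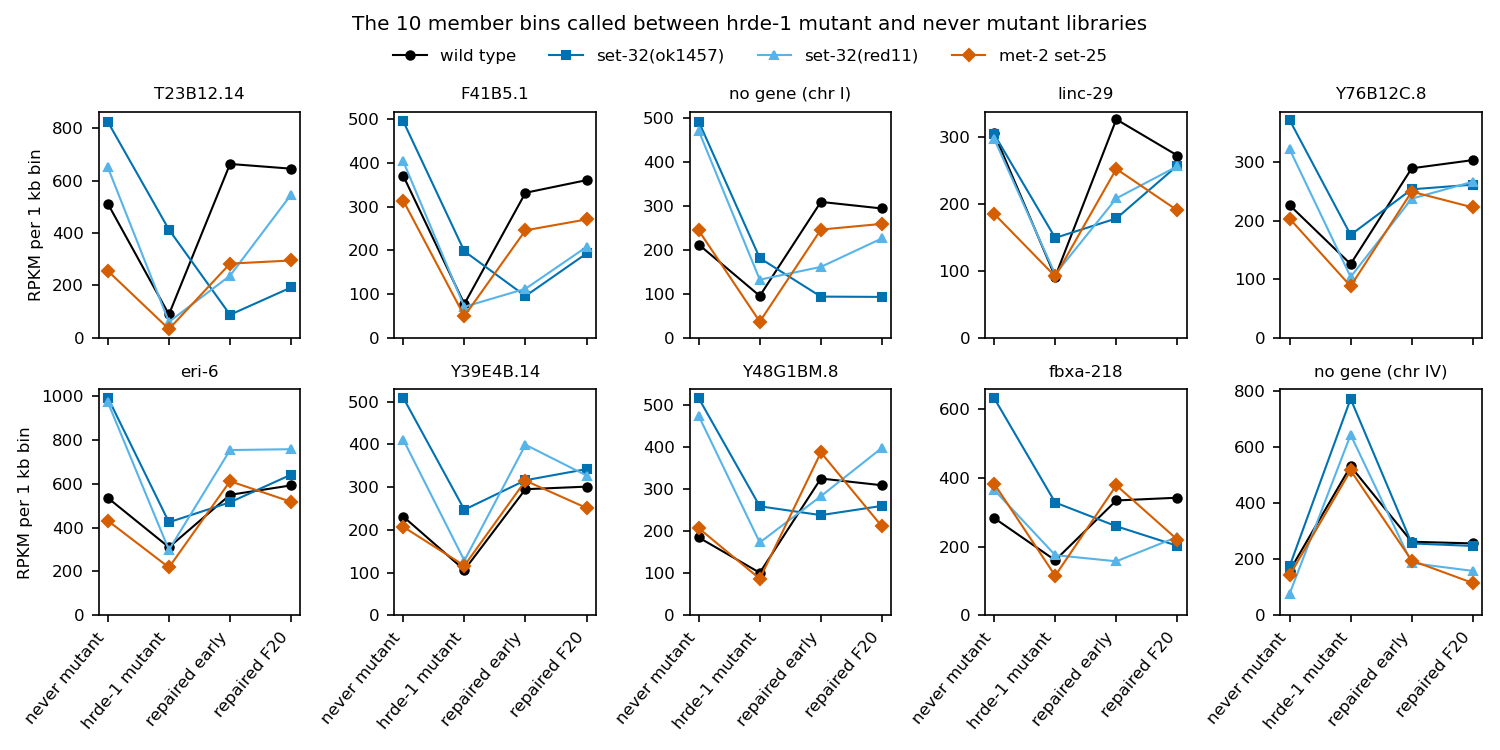
RPKM (y axes, linear, each from 0) of the 10 called bins in the 4 hrde-1 states (x axis, early being F5, or F8 for set-32(ok1457)), with a line for each background joining single libraries. In every panel the mutant value differs from the never mutant value in the same direction in all 4 backgrounds, which the choice of the bins by this comparison favours. After repair the 2 wild-type values of T23B12.14 are 664 and 646 RPKM and those of set-32(ok1457) are 87.4 and 192 RPKM.

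Pairwise comparisons between backgrounds called no member. By limma with state as the block, 0 bins were called between the 8 set-32 and the 4 wild-type-background libraries (0.0% of tested bins), with 61 at an unadjusted p under 0.05 (17.4% of members; 2984 of the 25407 tested bins, a smaller share), and 0 between met-2 set-25 and wild type (0.287%), with 36 (10.3% against 12.2%). The median log2 difference for set-32 was 0.272 in members and 0.170 in all tested bins. The never mutant and hrde-1 mutant libraries of both set-32 alleles have high table totals, and no wild-type library does. In those states set-32 background and table total cannot be told apart. An F test over all 16 libraries for any background called 3 members (0.855%, against 1.77% of tested bins).

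All 3 were lowest in met-2 set-25. The F-box gene fbxb-85 (III:10848001-10849000) held 78.2, 61.0, 101 and 101 RPKM in met-2 set-25 as never mutant, mutant, repaired early and F20, and 95.0 to 414 RPKM in the other 12 libraries (limma adjusted p = 0.0105). Only the wild-type hrde-1 mutant, at 95.0 RPKM, fell within the met-2 set-25 range. Y50D4A.6 (V:1199001-1200000) held 112, 84.7, 143 and 119 RPKM in met-2 set-25 and 172 to 579 RPKM elsewhere, without overlap (limma adjusted p = 0.0222).

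The lincRNA linc-45 (III:3152001-3153000), in the bin beside C44B11.6, held 107, 83.0, 170 and 111 RPKM in met-2 set-25 and 209 to 426 RPKM in the others, again without overlap (limma adjusted p = 0.0386). Its background means were 296 ± 41.0 RPKM in wild type, 303 ± 83.4 RPKM in set-32(ok1457), 294 ± 69.9 RPKM in set-32(red11) and 118 ± 37.0 RPKM in met-2 set-25 (SD, n = 4 states each). Tested against wild type alone, the log2 differences of fbxb-85, Y50D4A.6 and linc-45 were -1.08 ± 0.24, -1.05 ± 0.23 and -1.36 ± 0.23 (limma adjusted p = 0.12, 0.114 and 0.0666). The count of 3 went from 1 to 5 when single libraries were left out: it was 1 without the never mutant, hrde-1 mutant or F20 library of met-2 set-25 or the hrde-1 mutant of set-32(red11), and 5 without met-2 set-25 repaired early.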

How the data were processed

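Values are the authors' RPKM in bins of 1 kb, deposited as a single table for the 16 labelled libraries; 27 further library columns were not used. Per the submitters' processing notes, Bowtie 0.12.7 was used; neither the build of the genome nor any read filter is named in the labels or the table. RPKM cannot be turned back into reads throughout, so no count test was run, and depth was read from the commonest value above 0. Bins were tested with limma 3.58.1 in R 4.3.3 on log2(RPKM + 1) where the 16-library mean reached 5 RPKM, with trended empirical Bayes, the background (or state) as block and Benjamini-Hochberg adjustment over 25407 bins, two-sided, threshold 0.05. On this scale changes of low bins are understated. Each genotype had 1 library, so p-values measure only the spread between backgrounds or states. The code was tested on simulated data. Named are the 15 highest bins, called bins, the 5 least and 5 most variable, 3 on either side of the threshold, and bins over microRNAs or listed genes; bins outside this rule, such as pyk-1 and the gene-free and piRNA examples, were chosen after their values were seen. Members and lists were chosen with earlier results of these data known.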

Additional observations from a re-analysis of the deposited data

Results flagged for a closer look

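In each group of 4 libraries of one hrde-1 state, the highest or lowest library was examined for its gap to the next, relative to the range, by Dixon's criterion, for 45 named bins (180 groups). There were 12 such values, and chance gives about 1 in 20 groups. For F02C12.3, met-2 set-25 repaired early held 1523 RPKM against 810 to 908 RPKM in the other 3, and set-32(ok1457) F20 held 968 RPKM against 858 to 869 RPKM. Met-2 set-25 repaired early was also the high library for Y52B11A.18 (1469 RPKM against 602 to 739 RPKM) and the mir-229 bin (422 RPKM against 262 to 282 RPKM); its table total is among the 5 high ones, unlike the other 3 repaired early libraries.

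Among the hrde-1 mutants, set-32(ok1457) was the high library for T23B12.14 (413 RPKM against 32.8 to 88.6 RPKM), F39E9.7 (618 RPKM against 296 to 324 RPKM), Y39E4B.14 (247 RPKM against 106 to 128 RPKM) and linc-29 (149 RPKM against 91.0 to 94.6 RPKM), and set-32(red11) was the low library for the gene-free bin IV:914001-915000 (180 RPKM against 217 to 223 RPKM). The low library was met-2 set-25 for linc-29 in the never mutant state (185 RPKM against 297 to 305 RPKM) and for Y50D4A.6 at F20 (119 RPKM against 298 to 329 RPKM). Wild type was the high library for linc-7 at F20 (448 RPKM against 362 to 375 RPKM).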

How the results depend on the processing

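None of the 10 bins called between hrde-1 mutant and never mutant changed direction under an alternative. In these bins every pair moved in the same direction, so leaving out a pair could not reverse them. The F tests have no direction. Over the 9 bins that fell, the median of set-32(ok1457) repaired early, as a percentage of never mutant, differed from that of the mutant by -2.4 points as deposited and by 14.7 points per table total, and the 60 members higher in the 5 libraries of high table total became 6; the cause was not tested. The number of member bins was 530 at a mean of at least 150 RPKM and 155 at 300 RPKM. The 10 bins called between hrde-1 mutant and never mutant became 3 with a pseudocount of 0.25, 0 without the filter on low bins, 1 with no replicate block, 4 with all 16 libraries in 1 fit and 0 to 12 when 1 background was left out. With only the pairs whose libraries share a name prefix, 10 members were called between repaired early and mutant and 21 between F20 and mutant. Between early and never mutant 20 were called and between F20 and never mutant 15, in place of 0 in each. Over all tested bins the counts were 124, 476, 652 and 410, in place of 11, 34, 0 and 0. The cause was not tested. When high or other table total was a further term, F20 against mutant gave 1, the F test over states 16 and that over backgrounds 11. Over all tested bins these fits called 17, 310 and 806. The table-total term could not be fitted for mutant against never mutant. With all 16 libraries in 1 fit, early against mutant, F20 against mutant and met-2 set-25 against wild type each gave 1. Met-2 set-25 against wild type gave 2 with a pseudocount of 5 and 2 with values centred on library medians, which moves the median of all tested bins, 0.114 in that comparison. The F test over states gave 0 without the filter and 2 when centred, and 0 to 3 when 1 library was left out; that over backgrounds gave 0 without the filter and 1 to 5. F20 against mutant gave 0 to 1. The replicate block stands for the background or state in the titles, since the libraries' own replicate numbers pair nothing. Of 198 values of the called bins under alternatives, 113 kept their side of the threshold and 85 lost it.

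Depth limits single values: 200 RPKM stood for as few as 32 reads in met-2 set-25 repaired early, where 3 reads are 18.9 RPKM.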
